A study of Rattus norvegicus with 4 samples.

Results

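The 8 genes described here encode lectin receptors of myeloid cells, the proteins with which macrophages read sugars and related surfaces: the C-type lectins Clec7a, Clec4a, Clec4d, Clec4e, Clec10a, Clec12a and Mrc1, and the sialic acid receptor Siglec1. They were found by matching the accession of each gene probe on the array to rat gene symbols. All 8 had a probe, 11 probes in all, out of 16581 named genes. The cells were NR8383, a rat alveolar macrophage line obtained by lavage of a healthy lung, used after 20 passages and with about equal adherent and floating parts. Each culture had received NM105 titanium dioxide, particles that mix anatase with rutile and are also known as P25, at 3 cm2 of particle surface per cm2 for 4 h. The series sets such cultures against untreated ones; the 4 exposed cultures (replicates 1 to 4, called biological replicates in the series) make up the 1 group examined, and the untreated ones were not analysed here. Nothing below is therefore a response to the particles, and no test between groups could be made.

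A C-type lectin receptor holds its ligand in a compact domain that in many members needs calcium. Some of these receptors pass an activating signal through the kinase Syk, either from a motif in their own tail, as Clec7a does, or through the adaptor FcRγ, as Clec4d and Clec4e do. Others, such as Clec4a and Clec12a, carry an inhibitory motif that recruits phosphatases, and Mrc1 and Clec10a mainly take up the glycoproteins they bind. Siglec1 belongs to a different family of lectins, built from immunoglobulin domains, and is a known surface marker of tissue macrophages.

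RefSeq windows upstream of the gene were matched for 6 of the 8 genes, and not for Clec10a and Siglec1. The 4 shown belong to the matched genes with a signal call on at least 1 array, to set the DNA ahead of Clec7a and Clec12a, with calls throughout, beside that of Mrc1 and Clec4d, with a call on 1 array. Only bases outside the annotated gene are given, on the strand of the gene in GRCr8, and a window is 124, 194 or 250 bases long. They lie at chr4:164599954-164600077 (minus strand) for Clec7a, chr4:164483912-164484161 (plus) for Clec12a, chr17:82157475-82157724 (plus) for Mrc1 and chr4:158275093-158275286 (plus) for Clec4d. Capitals mark matches on either strand to GAGGAA, the core bound by the myeloid factor PU.1, to TGANTCA, an AP-1 site, and to TATAAA.
Clec7a: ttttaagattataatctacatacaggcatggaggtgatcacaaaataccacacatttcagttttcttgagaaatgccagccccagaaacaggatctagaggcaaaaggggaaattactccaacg
Clec12a: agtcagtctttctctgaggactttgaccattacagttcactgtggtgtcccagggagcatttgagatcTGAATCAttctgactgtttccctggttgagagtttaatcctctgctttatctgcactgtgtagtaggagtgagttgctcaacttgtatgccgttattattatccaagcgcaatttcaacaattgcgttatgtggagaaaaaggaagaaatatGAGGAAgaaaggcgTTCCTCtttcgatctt
Mrc1: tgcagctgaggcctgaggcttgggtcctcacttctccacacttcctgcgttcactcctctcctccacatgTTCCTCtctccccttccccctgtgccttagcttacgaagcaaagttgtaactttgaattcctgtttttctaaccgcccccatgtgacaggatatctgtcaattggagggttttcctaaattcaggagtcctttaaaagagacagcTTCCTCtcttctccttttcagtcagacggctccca
Clec4d: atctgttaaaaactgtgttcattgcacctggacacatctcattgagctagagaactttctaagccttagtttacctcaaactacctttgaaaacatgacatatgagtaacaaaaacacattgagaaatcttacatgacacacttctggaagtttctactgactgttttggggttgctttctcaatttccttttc
The Clec12a window held 2 matches to GAGGAA, which begin 30 and 16 bases before the gene and lie on opposite strands, and 1 match to TGANTCA that begins 182 bases before it. The Mrc1 window held 2 matches to GAGGAA, both on the opposite strand. Of all 33469 windows cut to 250 bases, 23.3% held GAGGAA, 6.34% held TGANTCA and 12.9% held TATAAA. The windows of Clec7a and Clec4d held none of the 3 motifs, but they were cut short where the annotated gene begins. At their lengths GAGGAA occurs in 12.3% and 18.6% of all windows. Those shares count from the upstream end of each window, without a cut at the gene, so the settings are not fully alike. These are matches of letters and show nothing about binding.

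Each culture's RNA was labelled with Cy3 and put on 1 array, and all 4 arrays lay on 1 slide. A probe counted as detected where the scanner software called most of its spots well above background, and a gene where any of its probes was detected. Over the probes detected throughout, the 75th percentile was 1431 intensity units for replicate 1, against 585, 767 and 831 for replicates 2 to 4. Replicate 1 thus had the brightest array, and it alone gave 854 of the 961 single-array gene calls. Levels are therefore also given as log2 of signal over that array's own percentile; they place 1 probe on different arrays and cannot rank genes, since each probe has its own brightness. The limit of the negative control spots, taken as their 99th percentile, was 5.07 to 5.96 intensity units. Macrophage markers gave a call on every array for 7 of 10 genes measured, Cd68, Lyz2 and Pparg among them, with Adgre1, Cd163 and Mertk on none. Over all named genes, 35.2% had a call on every array and 53.7% on none. Of the markers of other cells, neutrophils (6 measured), B and T cells (4), epithelium (5) and fibroblasts (4) had none called on every array, though S100a8 of neutrophils was called on replicates 1 and 4 and Col1a1 of fibroblasts on replicate 1, while dendritic cells had 1 of 5 (Batf3) and monocytes 2 of 5 (Cx3cr1 and Nr4a1).

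The 8 lectin genes fell into 3 groups by their calls. Clec7a, Siglec1 and Clec12a were detected on every array (3 of 8, where the share over all named genes was 35.2%). Clec4d and Mrc1 were detected on 1 array, replicate 1 in both cases (2 of 8, against 5.8% of all named genes). Clec4a, Clec4e and Clec10a were detected on none (3 of 8, against 53.7% of all named genes). The share detected throughout was thus close to that of all genes. A gene without a call may still be expressed below what the array resolves.

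**Figure D1:**
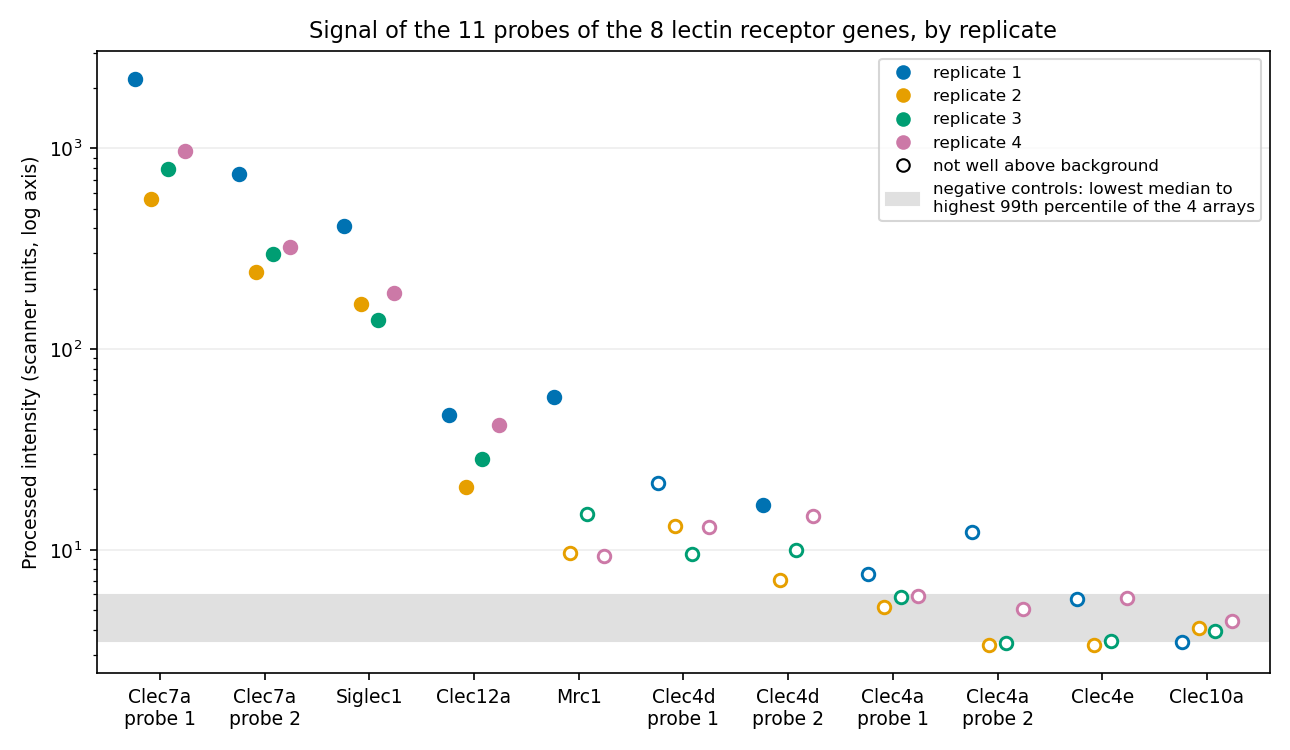
Processed intensity (log axis) of the 11 probes of the 8 lectin genes, 1 point per replicate, filled where the spot was called well above background and open where it was not, with the range of the negative controls shaded. Clec7a, Siglec1 and Clec12a are filled on all 4 arrays, Mrc1 and 1 Clec4d probe on replicate 1 alone, and the 3 genes on the right lie at or near the controls; heights of different probes are not comparable.

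Clec7a encodes Dectin-1, the receptor for fungal beta-glucan, which also starts phagocytosis. Its probe with 2 spots gave 2219, 558, 787 and 969 intensity units on replicates 1 to 4. The second probe gave 747, 242, 299 and 325 intensity units on replicates 1 to 4. Replicate 1 was thus the brightest array and replicate 2 the dimmest for both probes before scaling. After scaling, the 2-spot probe stood at a log2 level of 0.63, −0.07, 0.04 and 0.22 on replicates 1 to 4, a mean of 0.21 ± 0.31 (SD, n = 4). The other probe stood at −0.94, −1.27, −1.36 and −1.36, a mean of −1.23 ± 0.20 (SD, n = 4). Replicate 1 stayed highest for both probes with every scaling tried, whereas the lowest array changed with the scaling. The highest and lowest arrays of the first probe differed by 0.70 on the log2 scale, and its 2 spots on the same array by 0.02 to 0.15. The spread between arrays thus exceeded that between spots; it holds culture, extraction, labelling and hybridisation together. Without replicate 1 the SD of Clec7a fell from 0.31 to 0.15.

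Siglec1 encodes sialoadhesin (CD169), which binds sialic acid on cells, vesicles and some pathogens. Its single probe gave 412, 169, 140 and 190 intensity units on replicates 1 to 4. In scaled log2 levels these were −1.80, −1.79, −2.45 and −2.13, a mean of −2.04 ± 0.32 (SD, n = 4). Replicate 3 was lowest with every scaling tried. Without replicate 3 the SD of Siglec1 fell from 0.32 to 0.19.

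Clec12a encodes an inhibitory receptor of myeloid cells that recognises uric acid crystals and dampens the response to dead cells. Its probe was dim, at 46.9, 20.5, 28.5 and 41.8 intensity units on replicates 1 to 4, and on each array it was 3.75 to 8.34 times the negative control limit. The scaled log2 levels were −4.93, −4.83, −4.75 and −4.31, a mean of −4.71 ± 0.27 (SD, n = 4). Replicate 4 stood above the other 3, although normexp background correction placed replicate 2 highest. The SD of Clec12a fell from 0.27 to 0.09 without replicate 4.

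Before scaling, replicate 1 read 3.976, 2.936 and 2.285 times the lowest array for Clec7a (2-spot probe), Siglec1 and Clec12a. After scaling, none of these 3 genes differed 2-fold or more between highest and lowest array, as 9.07% of the 5830 genes detected throughout did. Their median SD was 0.309, beside 0.225 over those 5830 genes, for which the middle 50% ran from 0.156 to 0.319. The array farthest from the gene's mean was a different one each time: replicate 1 for Clec7a, replicate 3 for Siglec1 and replicate 4 for Clec12a. Under normexp correction it was replicate 1 for Clec12a as well, at −0.56 from its mean, and Siglec1 was as far from its mean on replicate 2 as on replicate 3. The low replicate 1 was not particular to Clec12a under that correction. Every probe of the dimmer genes Clec4a, Clec4d, Clec4e and Clec10a was also lowest there, at −0.527 to −0.705.

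**Figure D2:**
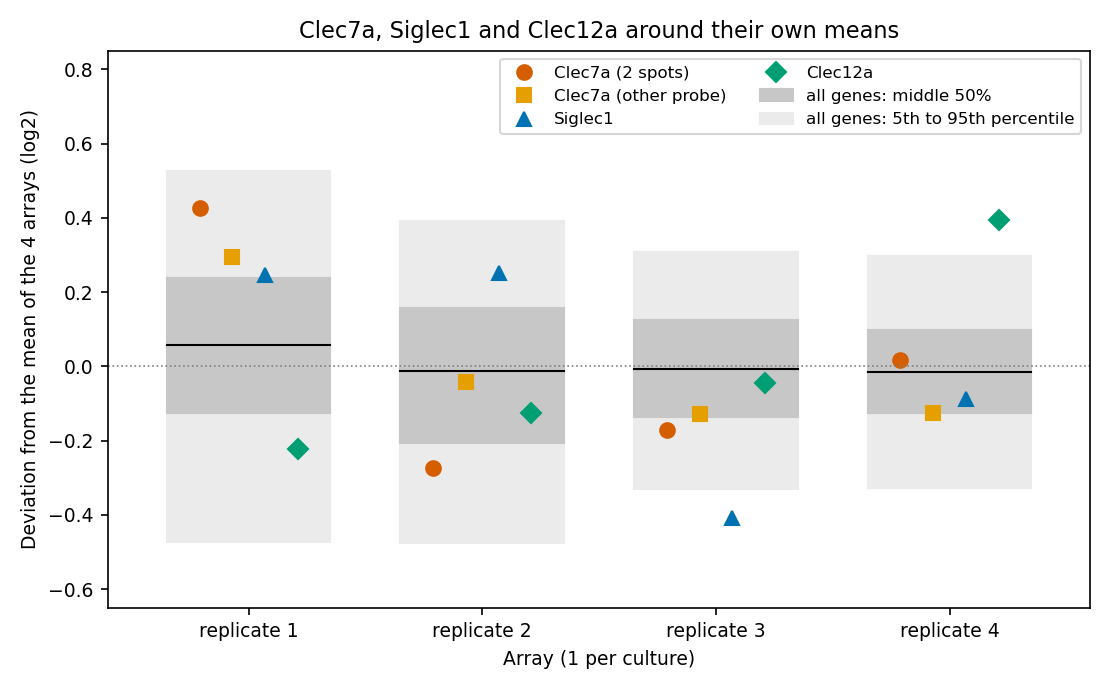
Deviation of the scaled log2 level from the probe's own mean over the 4 arrays, for the 4 probes detected on every array, by replicate, with the middle 50% and the 5th to 95th percentile of all 5830 detected genes as grey boxes and their median as a line. Both Clec7a probes are highest on replicate 1, Siglec1 is lowest on replicate 3 and Clec12a is highest on replicate 4.

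Mrc1 encodes the mannose receptor (CD206), which takes up glycoproteins ending in mannose and is a marker of alveolar and of IL-4-stimulated macrophages. Its single probe read 58.0 intensity units on replicate 1, where it was called, and 9.69, 15.0 and 9.34 on replicates 2 to 4, where it was not. Replicate 1 stood clear of the other 3 arrays, also after scaling, where the log2 levels were −4.62, −5.92, −5.67 and −6.48. With normexp correction, which adds an offset of 50, replicate 2 was highest instead. Under that correction replicate 2 was highest for every lectin gene except Clec7a, so this order was not particular to Mrc1. The probe exceeded the negative control limit on every array, at 10.3 times it on replicate 1 and 1.77, 2.97 and 1.57 times it on replicates 2 to 4. Whether the higher signal came from the culture or from the array was not tested.

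Clec4d encodes MCL, a receptor for mycobacterial glycolipid that is needed for full display of its partner Mincle. One of its probes read 16.6, 7.08, 9.98 and 14.7 intensity units on replicates 1 to 4 and was called on replicate 1. The other probe read 21.5, 13.1, 9.52 and 13.0 and was called on no array. Both probes exceeded the negative control limit on every array, at 1.29 to 3.83 times it. By that limit 5 of the 8 lectin genes passed throughout, Clec4d and Mrc1 included, beside 44.4% of all named genes. By the software's laxer flag for positive and significant spots 6 passed, with Clec4a added, beside 46.8% of all named genes. Before scaling both probes were brightest on replicate 1. After scaling they disagreed on the order of the arrays: the first was highest on replicate 4, the second on replicate 2. The scaled median of the negative controls itself ran from −8.67 on replicate 1 to −7.35 on replicate 2.

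Clec4e encodes Mincle, which binds mycobacterial cord factor and a nuclear protein set free by dying cells. Its probe read 5.66, 3.36, 3.50 and 5.74 intensity units on replicates 1 to 4, within the range of the negative controls or close to its edge. Clec4a, the inhibitory receptor DCIR, read 12.3, 3.36, 3.42 and 5.07 with its first probe and 7.60, 5.19, 5.85 and 5.86 with its second. The first probe on replicate 1 stood at 2.18 times the negative control limit, without a call. Clec10a, the galactose-binding macrophage lectin, read 3.47, 4.07, 3.96 and 4.42 and stayed below that limit throughout. No order of the arrays can be read from these probes.

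Unlike Clec4a, close relatives of it gave signal throughout. Clec4a1, Clec4a2 and Clec4a3, members of the same family of DCIR-like receptors, were each detected on every array. The Clec4a1 probe gave 1666, 883, 974 and 1080 intensity units on replicates 1 to 4, a log2 level of 0.38 ± 0.16 (SD, n = 4). For Clec4a2 the intensities were 160, 51.0, 74.8 and 117, and for Clec4a3 558, 130, 198 and 255. Their levels were −3.22 ± 0.30 for Clec4a2 and −1.80 ± 0.35 for Clec4a3 (SD, n = 4 each). After scaling the 3 did not share an order of arrays: Clec4a1 peaked on replicate 2 (0.59) and was lowest on replicate 1 (0.22), Clec4a2 was highest on replicate 4 at −2.83, and Clec4a3 on replicate 1 at −1.36. Clec4b2 read 3.15 to 3.64 intensity units, the level of the controls. These genes are similar in sequence, and which copies each probe binds was not tested.

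**Figure D3:**
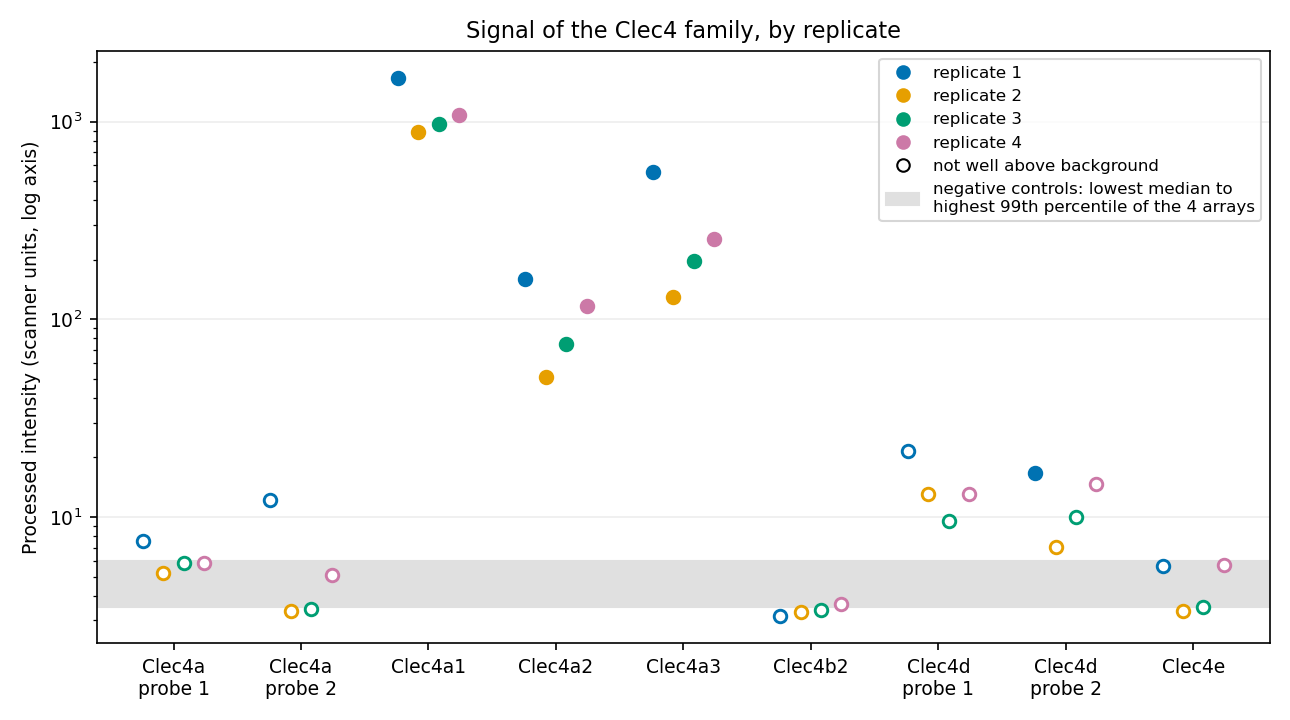
Processed intensity (log axis) of probes for Clec4a, its relatives Clec4a1, Clec4a2, Clec4a3 and Clec4b2, and Clec4d and Clec4e, 1 point per replicate, filled where called well above background, with the range of the negative controls shaded. Clec4a1, Clec4a2 and Clec4a3 are filled on all 4 arrays, while Clec4a, Clec4b2 and Clec4e lie at or near the controls.

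Of 36 further C-type lectin receptors listed, 27 were measured. Clec4n, Clec6a, Clec4g, Cd209, Cd209b, Cd209c, Cd207, Mgl2 and Ly75 had no named probe. Among the 27, 5 were detected on every array, 3 on some and 19 on none, beside 35.2% of all named genes on every array and 53.7% on none. Beside the 3 Clec4a relatives, the 5 were Cd302, an endocytic receptor, at −0.82 ± 0.35, and Mrc2, the collagen receptor Endo180, at −1.92 ± 0.30 (SD, n = 4 each). Mrc2, the relative of Mrc1, gave 447, 175, 152 and 217 intensity units with the probe called throughout, while its other probe read 21.0, 3.48, 6.74 and 6.65 and was called on replicate 1 alone. Clec5a, which signals through the adaptor Tyrobp, read 63.1, 15.5, 31.5 and 25.6 and missed the call on replicate 2. Olr1, a receptor for oxidised lipoprotein, read 95.6, 15.3, 54.7 and 59.7 and missed it on the same array. Clec2d missed it on replicate 3. Clec9a, Clec1a, Clec1b and Clec4b2 were among those detected nowhere. None of 5 soluble collectins was detected, the surfactant proteins Sftpa1 and Sftpd and the mannose-binding lectins Mbl1 and Mbl2 among them.

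Of 4 other Siglec genes measured, Mag was detected on every array (1 of 4, beside 35.2% of all named genes), Siglec5 on replicate 1 alone, and Cd22 and Siglec15 on none. A further 4 of the list had no named probe. Mag, known from myelin, was dim, at 46.6, 33.0, 37.0 and 35.6 intensity units with a probe of 10 spots, and its other probe was called nowhere, so the probes disagree.

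Genes that carry the receptors' signals came next. Of 18 activating genes measured, 14 were detected on every array, 1 on some and 3 on none, and of 6 inhibitory genes all 6 were, beside 35.2% of all named genes on every array and 53.7% on none. The adaptor gene Fcer1g, which encodes the FcRγ chain used by Clec4d and Clec4e, gave 28530, 12650, 12750 and 16210 intensity units, a level of 4.27 ± 0.16. Its fellow adaptors Tyrobp and Hcst stood at 4.84 ± 0.07 and 0.91 ± 0.12. The kinase gene Syk stood at −1.77 ± 0.07, and Plcg2 and Prkcd, which act after it, at −2.85 ± 0.30 and 0.94 ± 0.18 (SD, n = 4 for each). These are the brightest probes. A second Syk probe stood at −5.21 ± 0.28, and a second Prkcd probe, not called on replicate 2, at −4.37 ± 0.40 (SD, n = 4 for each). Card9 and Bcl10, which link Dectin-1 to NF-κB and are named here with their values known, stood at −1.15 ± 0.33 and −2.64 ± 0.46. Bcl10 alone among the 14 differed 2-fold or more between arrays, from −2.17 on replicate 1 to −3.28 on replicate 2. Src, Traf6 and Cybb were detected on none, and Vav3 on replicates 1 and 4. The phosphatase genes Ptpn6 and Inpp5d, which inhibitory lectins recruit, stood at 3.55 ± 0.09 and −1.62 ± 0.26. Ptpn11 stood at −1.82 ± 0.13, Csk at 1.73 ± 0.14, Cblb at −4.11 ± 0.28 and Pstpip1 at −1.81 ± 0.07 (SD, n = 4 for each). A second Ptpn11 probe stood at −5.66 ± 0.46 (SD, n = 4) and missed the call on replicate 2. The median SD was 0.226 over the 14 activating genes and 0.133 over the 6 inhibitory ones, beside 0.225 over all detected genes and 0.309 over Clec7a, Siglec1 and Clec12a. These genes were not matched for brightness or spots. Tyrobp, Ptpn6 and Csk had 10 spots each, while Siglec1, Clec12a, Syk and Pstpip1 had 1. How far this bears on the SDs was not tested.

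**Figure D4:**
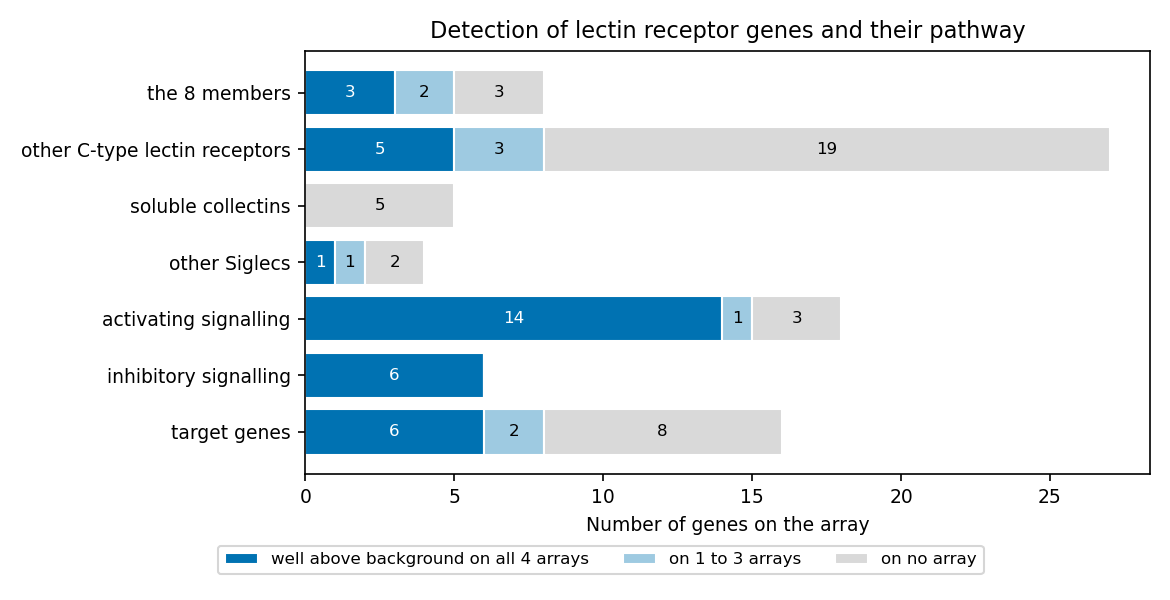
Number of genes measured in each list, split into those detected on all 4 arrays, on 1 to 3 arrays and on none. Of the 8 lectin genes 3, 2 and 3 fall in these classes, against 14, 1 and 3 of the 18 activating signalling genes.

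Genes that C-type lectin signalling is known to switch on were detected on every array for 6 of 16, on some for 2 and on none for 8, shares close to the 35.2% (every array) and 53.7% (none) of all named genes. The chemokine genes Ccl3 and Cxcl2 stood at 3.02 ± 0.08 and 0.63 ± 0.31, and the growth factor gene Csf3 at −1.84 ± 0.37 (SD, n = 4 each), with Il1b, Tnf and Nfkbia also detected throughout. The Tnf probe called throughout stood at 0.71 ± 0.41, and a second one, not called on replicate 2, at −5.09 ± 0.64 (SD, n = 4 each). Cxcl1 and Egr2 missed the call on replicate 2. Il10, Il6, Il23a and Il12b were detected on none. Without untreated cultures these levels cannot be tied to the lectins or to the particles.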

How the data were processed

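Cy3 intensity was measured on 4 one-colour arrays of 1 group. The deposited files hold intensity, per the file headers from Agilent Feature Extraction 11.0.1.1 (protocol GE1_1100_Jul11, array design 074036, probe annotation rn4). The authors' software subtracted background and detrended each array, raised low spots to a floor above 0 and did not normalize between arrays. Flags for each spot are its own.

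Control spots and outlier spots (486 to 723 gene spots per array) were left out of intensities, and none was saturated. The log2 of the deposited intensity was averaged over a probe's spots, and the 75th percentile of each array, taken over probes detected throughout (22.9% of all, under the 50% at which all probes would have been used), was subtracted. Of 45598 probes, 21109 (46.3%) matched a GRCr8 RefSeq gene, used for names and upstream windows. A gene's level is that of its brightest probe.

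There was no test, only mean and SD over arrays, whose number, 4, limits the precision. Members and lists were chosen with earlier results of these data known, and motifs with the windows in view. The naming rule took all 8 members and, per list in written order, up to 6 genes detected throughout, 4 on some arrays and 4 on none; marker lists are given by counts with examples. Patterns like a member's were not sought, since 4 arrays are too few. Alternatives were normexp (limma 3.58.1, R 4.3.3), other scalings, calls and probe rules, and each replicate left out. The level steps were checked on simulated data. Other steps ran in pandas 2.3.3 and numpy 2.4.6 under Python 3.11.15, with plots from matplotlib 3.10.9.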

Additional observations from a re-analysis of the deposited data

How the results depend on the processing

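Of the 8 lectin genes, 3 were detected throughout with the call used, 5 with the negative control limit as the call (44.4% of all named genes), adding Clec4d and Mrc1, and 6 with the software's laxer flag for positive and significant spots (46.8% of all named genes), adding Clec4a as well. That flag was tried after seeing the data and also marked 3.57% to 6.17% of negative control spots. Counting any called spot, or the brightest probe alone, left 3, as did leaving out each replicate in turn (3 to 3). After scaling, the count at least 2-fold apart between arrays was 0. It was also 0 under normexp, the other scalings, the mean over probes and each replicate left out (0 to 0). Without the filter on dim genes it was 2 (Clec10a and Mrc1), where 52.8% of all genes passed. With no scaling the log2 ranges were 1.991 for Clec7a (2-spot probe), 1.554 for Siglec1 and 1.192 for Clec12a, each more than 2-fold. The median SD of 0.309 ranged from 0.281 to 0.378 with a replicate left out and from 0.273 to 0.359 under the other settings. It stood above the median over all genes in each of these (0.183 to 0.24) except without the filter on dim genes. There it was 0.335 over all 8 lectin genes, below the 0.464 over all genes. Levels moved with the percentile used, since that sets their zero. The level of Clec12a was −3.23 under normexp in place of −4.71, and that of Clec7a −0.51 as the mean over probes and 0.52 without replicate 2, in place of 0.21. No paired analysis was possible because there is 1 group. On these arrays signal over background limits Mrc1, Clec4d, Clec4a, Clec4e and Clec10a.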

Other observations

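In the reference annotation several of these genes are neighbours on chromosome 4, a choice of genes made after their values were seen. From Clec12a to Clec7a the table lists 7 protein-coding genes, of which 6 were measured. The 2 genes at the ends, Clec12a and Clec7a, were detected on every array, and the 4 measured between them, Clec12b, Clec1b, Clec9a and Clec1a, on none. Clec12b read 3.06 to 3.65 intensity units and Clec1a 3.49 to 8.65. From Clec4a to Clec4e the table lists 4 such genes, all measured: Clec4d was detected on replicate 1, and Clec4a, Clec4b2 and Clec4e on no array. Over all named genes, 35.2% were detected on every array, 5.8% on exactly 1 and 53.7% on none. With so few genes, no pattern along the chromosome is read from these calls.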
